A study of Mus musculus with 4 samples.

Results

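Long intergenic noncoding RNAs (lincRNAs) are spliced transcripts with no protein product that an annotation places outside the genes it calls coding. The lincRNAs described here are the genes that the Ensembl annotation of the mouse build NCBIM37 gives that biotype and that reached 50 raw read counts in at least 1 of 4 libraries. The imprinted genes Meg3, Rian, Mirg, H19, Airn and Kcnq1ot1, 4 of which met these conditions, and genes of the X and Y chromosomes were left out, while other lincRNAs of imprinted loci were kept. Of 37620 genes in the count table, 13898 reached the same number of counts and 472 of these were lincRNAs chosen in this way. The members were chosen by their raw read counts, so a member with few counts in one condition had to be high in another, and the numbers of members that differed are given as a description beside those of all 13898 genes. The floor was met narrowly, with 50 to 59 counts in the highest library, by 33 members, and 48 further lincRNA genes ended just under it, at 40 to 49.

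Some lincRNAs act in the nucleus as scaffolds for chromatin and splicing proteins, some host small nucleolar RNAs or microRNAs in their introns, and many begin beside genes of developmental transcription factors and share their pattern of expression. In pluripotent cells several are known from the naive state. Lncenc1 was described as a transcript of naive embryonic stem cells (ESCs), and the Platr genes (pluripotency-associated transcripts) were named for their pattern in ESCs, while the RNAs beside Evx1, Shh or the Hoxa genes lie at loci that are used once cells leave that state.

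The cells were R1 mouse ESCs of strain 129/Sv, either wild type (WT) or lacking Cripto (Cripto KO), the gene symbol of which is Tdgf1 and which encodes a membrane-anchored co-receptor of Nodal. Each genotype was grown as ESCs in serum with leukemia inhibitory factor (serum/LIF) or taken for 6 days through N2B27 medium with Activin A at 20 ng per ml and basic fibroblast growth factor (F/A), the condition that gives epiblast stem cells (EpiSCs). The labels do not tell which knockout clone was sequenced. There was 1 library per condition, so no difference below has a replicate check and no p-value is given. Tdgf1 itself had 18714 counts in WT serum/LIF and 945 in Cripto KO serum/LIF, and 1572 against 86 counts in F/A. The libraries held between 15230856 and 17315442 counts. Nearly all counts of Cripto KO F/A were even (0.0160% odd, against 53.1 to 53.6% in the other 3 libraries), and they were divided by 2 for every interval. The 7 naive markers summed to 3576 and 3197 cpm (counts scaled to the library total) in serum/LIF and to 29.5 and 46.2 in F/A, for WT and Cripto KO, while the 7 primed markers summed to 200 and 216 in serum/LIF and 1427 and 798 in F/A.

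The name of the class was checked against the annotation, and for most members it did not hold. Of the 472, 356 overlapped a protein-coding gene, 333 of them on the opposite strand only, and 116 overlapped none. Only 82 members shared no base with any other gene. At the level of exons, 356 members shared bases with an exon of another gene, 345 of them on the opposite strand, with a median of 19.8% of their exonic bases, and 73 members shared 50% or more. By a later gene catalogue 252 of the members are long noncoding RNAs and 15 are protein-coding genes, and 197 had no match there.

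The counts at shared bases were then compared with those of the gene on the other strand. In the whole table, 106 genes lay entirely within exons of an opposite-strand gene, and 51 of them reached 50 counts. Of the 147 genes that lay entirely within exons of a gene on the same strand, 0 did, and their highest count was 5. In counts per exonic base, those 51 genes had a median of 1.36 times the level of the gene around them, with an upper quartile of 1.84. For the 12 lincRNAs so placed the median was 1.10, in a range from 0.126 to 1.69. Gm17427 inside Klf7 stood at 1.01 times, Gm17588 inside Nynrin at 1.12 times and Gm17639 inside Meg3 at 0.791 times the density of its host. Neither the labels nor the study's methods state whether the libraries kept the strand or which strand setting the counting used, so where a member and a gene on the other strand share bases, their reads cannot be told apart. Results are therefore given separately for the 356 members that overlap a protein-coding gene and the 116 that do not.

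The starts of 6 lincRNAs that carry the results are shown first. Each window of 300 bases runs from 250 bases before to 50 after the annotated 5′ end on the gene's own strand, read from the NCBIM37 genome. The first 4 belong to the members that were lower by the widest ratio in the WT and in the Cripto KO step, and higher and lower by the widest ratio between genotypes in F/A, by the naming rule used throughout (ratio rank among members with at least 100 counts in the higher library). Those of Gm11019 (Lncenc1 in later catalogues), the member with the highest count in any library, and Foxl2os, which starts 297 bases from the start of Foxl2, were added after their values were seen. Capitals mark matches to 7 short motifs searched on both strands: AAGGTCA (the half-site bound by Esrrb), ATTTGCA (part of the Pou5f1 octamer), CTTTGTT (Sox factors), ATCAAAG (Tcf/Lef), TCACACC (T-box), TAATCC (Otx2 and Gsc) and TATAAA (the TATA box). Gm5091 (chr17:15377698-15377997, - strand) and Gm13110 (chr4:154029378-154029677, - strand) have no overlapping gene. The RNA 2700086A05Rik (Hoxaas3, chr6:52124966-52125265, + strand) crosses the Hoxa3 to Hoxa7 genes, and Gm17639 (chr12:110809884-110810183, - strand) lies on the other strand of Meg3. Gm11019 is at chr13:98204675-98204974 (+ strand) and Foxl2os at chr9:98855680-98855979 (- strand).
Gm5091: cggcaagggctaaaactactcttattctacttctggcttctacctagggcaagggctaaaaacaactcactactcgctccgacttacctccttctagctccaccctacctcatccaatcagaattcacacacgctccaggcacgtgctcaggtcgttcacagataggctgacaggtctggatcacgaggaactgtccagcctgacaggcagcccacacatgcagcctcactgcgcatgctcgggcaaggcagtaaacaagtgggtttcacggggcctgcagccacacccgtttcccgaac
Gm13110: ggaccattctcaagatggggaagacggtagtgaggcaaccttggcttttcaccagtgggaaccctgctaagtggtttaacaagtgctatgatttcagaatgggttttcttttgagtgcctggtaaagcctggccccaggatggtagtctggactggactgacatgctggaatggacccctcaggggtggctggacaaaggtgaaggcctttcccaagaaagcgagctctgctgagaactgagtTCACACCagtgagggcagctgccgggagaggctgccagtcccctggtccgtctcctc
2700086A05Rik: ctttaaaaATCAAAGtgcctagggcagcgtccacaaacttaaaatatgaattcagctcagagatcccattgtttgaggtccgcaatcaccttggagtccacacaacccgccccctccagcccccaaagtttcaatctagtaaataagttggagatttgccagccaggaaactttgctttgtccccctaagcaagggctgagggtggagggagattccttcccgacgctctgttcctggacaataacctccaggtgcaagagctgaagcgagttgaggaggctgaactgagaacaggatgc
Gm17639: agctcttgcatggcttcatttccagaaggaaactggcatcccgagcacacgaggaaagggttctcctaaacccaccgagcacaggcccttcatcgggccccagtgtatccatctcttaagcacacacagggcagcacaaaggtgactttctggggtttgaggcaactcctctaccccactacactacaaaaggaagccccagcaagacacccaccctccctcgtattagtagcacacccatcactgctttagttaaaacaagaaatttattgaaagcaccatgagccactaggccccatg
Gm11019: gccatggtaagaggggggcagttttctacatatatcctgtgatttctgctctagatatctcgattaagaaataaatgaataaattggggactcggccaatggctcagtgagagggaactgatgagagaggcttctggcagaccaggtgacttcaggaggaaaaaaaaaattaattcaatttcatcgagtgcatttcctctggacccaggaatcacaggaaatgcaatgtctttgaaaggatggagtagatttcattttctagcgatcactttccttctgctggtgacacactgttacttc
Foxl2os: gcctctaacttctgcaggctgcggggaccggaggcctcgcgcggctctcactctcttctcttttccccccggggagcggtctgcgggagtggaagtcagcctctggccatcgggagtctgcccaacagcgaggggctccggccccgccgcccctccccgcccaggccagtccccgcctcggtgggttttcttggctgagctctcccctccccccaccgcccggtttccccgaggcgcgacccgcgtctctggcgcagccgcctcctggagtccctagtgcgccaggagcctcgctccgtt

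A match occurred in only 2 of these 6 windows, a T-box motif just before the start of Gm13110 and a Tcf/Lef motif at the far end of that of 2700086A05Rik. The ratio of observed to expected CpG was 0.747 for Foxl2os, with 28 CpG and 71.7% G or C, and between 0.180 and 0.554 in the other 5. Over all 472 members the median CpG ratio was 0.491, against 0.749 over 12389 autosomal protein-coding genes with the same count floor, and 41.7% against 69.0% lay above 0.6. By kind, the median was 0.814 for the 97 divergent lincRNAs, which face a protein-coding gene head to head with at most 5000 bases between the starts, and 0.859 for the 25 hosts of small RNAs. It was 0.362 for the 293 other members that overlap a protein-coding gene and 0.346 for the 57 isolated ones, which belong to none of these kinds but may overlap a noncoding gene, as Gm17639 does. Among motifs, AAGGTCA was in 15.8% of the isolated members' windows (9 of 57), in 4.87% of all members' and in 3.12% of the protein-coding ones. TATAAA was in 32.0% of those of the hosts of small RNAs (8 of 25). Both shares are named for their size among 7 motifs in 4 kinds and rest on few windows. Members higher and lower in F/A in both genotypes held AAGGTCA in 6.02% and 6.17% of their windows. Among those that overlap no protein-coding gene, the shares were 13.3% of the higher (2 of 15) and 8.70% of the lower (4 of 46). The shares for all members and for protein-coding genes were 2.97% and 2.83% for ATTTGCA, 5.30% and 4.22% for CTTTGTT, 4.24% and 2.62% for ATCAAAG, 4.45% and 3.52% for TCACACC, 8.69% and 6.29% for TAATCC, and 9.11% and 7.26% for TATAAA. A match of letters is a description of the window and was not tested as a binding site.

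As a class the lincRNAs were a small part of the RNA. They took 0.781% of the counts in WT F/A, 0.837% in WT serum/LIF, 0.742% in Cripto KO F/A and 0.859% in Cripto KO serum/LIF. Per kilobase of transcript, the median member had a mean of 70.4 counts over the 4 libraries, against 270 for protein-coding genes, and 79.3% of protein-coding genes lay above the median member. The split by overlap separated their course. Members that overlap no protein-coding gene summed to 2455 cpm in WT serum/LIF and 1735 in WT F/A, and to 2619 and 1394 in Cripto KO. Those that overlap one stayed within 5916 to 6075 cpm in all 4 libraries.

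The first comparison asked what changed among lincRNAs when WT ESCs were taken to F/A. A member was called when its normalized counts differed at least 2-fold and the 95% counting interval of the raw ratio lay wholly on the same side of 1. In WT, 128 of 472 members (27.1%) were higher in F/A and 95 (20.1%) were lower, where 20.3% of all genes were called higher and 20.2% lower. The median log2 ratio of the members was 0.10, and that of all genes was -0.10. Fewer cells of a type and less RNA per cell cannot be told apart in such bulk samples.

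The members with the widest rise among those with at least 100 counts in the higher library are given with the coding gene beside them. Gm17493 and 9530036O11Rik, both on the strand opposite to Shh, the gene of the Sonic hedgehog ligand, had 816 and 666 counts in WT F/A, 574 and 530 in Cripto KO F/A, and 0 in both serum/LIF libraries. Set against a detection limit of 3 counts (6 in the Cripto KO F/A library, where counts are even), Gm17493 was at least 309-fold higher in WT and at least 198-fold higher in Cripto KO, and 9530036O11Rik at least 252-fold and 183-fold. Both F/A libraries thus stood far from both serum/LIF libraries for this pair of transcripts. Shh itself had 2921 counts in WT F/A, 4 in WT serum/LIF, 2108 in Cripto KO F/A and 0 in Cripto KO serum/LIF. Gm17493 shared 31.8% of its exonic bases with another gene, and 9530036O11Rik 7.94%.

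Igf2as, on the other strand of the growth factor gene Igf2, had 843 counts in WT F/A, 2 in WT serum/LIF, 1352 in Cripto KO F/A and 4 in Cripto KO serum/LIF. The log2 ratio was 9.42 in WT, with an interval of the ratio from 132 to 3963, and 8.50 in Cripto KO, with one from 136 to 1285. Igf2 gave 18608, 22, 30974 and 49 counts in the same order, and 1.84% of the exonic bases of Igf2as were shared. D230002A01Rik, opposite to the homeobox gene Irx3, had 163 counts in WT F/A and 242 in Cripto KO F/A but 5 in each serum/LIF library, a log2 ratio of 5.47 in WT (interval of the ratio 15.6 to 116). Gm16662, which overlaps the gene of the growth factor Bmp5, had 99 and 152 counts in F/A and 7 and 2 in serum/LIF.

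B230323A14Rik, opposite to the forkhead gene Foxb1, had 85 and 180 counts in WT F/A and Cripto KO F/A and 0 in serum/LIF of either genotype, so that it was at least 32.2-fold and at least 62.0-fold higher. The transcript 5730457N03Rik (Evx1os), which begins 1334 bases from the start of the primitive streak homeobox gene Evx1, had 86 and 94 counts in F/A against 3 and 3 in serum/LIF. Its log2 ratio was 5.29 in WT, with an interval of the ratio from 10.8 to 161. Foxl2os, which shares no exonic base with its divergent partner Foxl2, had 213 counts in WT F/A and 92 in Cripto KO F/A, and 2 in each serum/LIF library. Its log2 ratio was 7.44 in WT (interval of the ratio 33.1 to 1006) and 5.58 in Cripto KO (12.4 to 404). For all of these lincRNAs both F/A values lay above both serum/LIF values, and Shh, Igf2, Irx3, Foxb1, Evx1 and Foxl2 had more counts in F/A as well.

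The widest falls included transcripts that overlap no other gene. Gm5091 had 589 counts in WT serum/LIF and 384 in Cripto KO serum/LIF and 0 in both F/A libraries, at least 173-fold and at least 62.0-fold lower. C330046G13Rik (Platr7) went from 552 to 1 count in WT and from 401 to 0 in Cripto KO, with an interval of the WT ratio from 5.2e-05 to 0.0115. Gm13110 had 474 counts in WT serum/LIF and 3 in WT F/A, and 531 and 0 in Cripto KO. None of these 3 shares an exonic base with another gene, and all 3 were close to 0 in both F/A libraries.

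Gm11019 (Lncenc1) reached the highest count of all members. It had 5068 counts in WT serum/LIF and 6114 in Cripto KO serum/LIF, and 52 and 46 in F/A, a log2 ratio of -6.48 in WT (interval of the ratio 0.0087 to 0.0153) and -6.90 in Cripto KO (0.00492 to 0.0117). Its nearest coding gene, Enc1, starts 193865 bases away and had log2 ratios of 0.78 and 0.81, which did not reach 2-fold. C430002E04Rik (Platr4) had 217 and 185 counts in serum/LIF and 7 and 0 in F/A. Of the 5 members that later catalogues call Platr or Lncenc1, 4 were called lower under F/A, in WT and Cripto KO alike. The fourth, 4930500J02Rik (Platr14), had 518 and 384 counts in serum/LIF and 157 and 70 in F/A, and Gm16880 (Platr22) was the exception, with 53 counts in WT serum/LIF and 101 in WT F/A against 62 and 44 in Cripto KO.

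Among hosts of microRNAs, A930011O12Rik, the host of the neuronal microRNA Mir124a-1, had 308 and 336 counts in serum/LIF of WT and Cripto KO and 5 and 4 in F/A. Sox2ot, the long transcript that encloses the pluripotency gene Sox2, had 291 and 264 counts in serum/LIF and 8 and 6 in F/A, a log2 ratio of -5.00 in WT with an interval of the ratio from 0.0134 to 0.0624. Gm6846, which starts 37333 bases from the kinase gene Sgk1, had 221 and 137 counts in serum/LIF and 3 and 0 in F/A, and Sgk1 was lower in F/A too, with log2 ratios of -3.26 and -4.37. The transcript 1700051A21Rik, on the other strand of the citrate transporter gene Slc13a5, had 125 and 64 counts in serum/LIF and 0 in both F/A libraries, while Slc13a5 had 995 and 383 counts in serum/LIF and 2 and 6 in F/A.

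**Figure D1:**
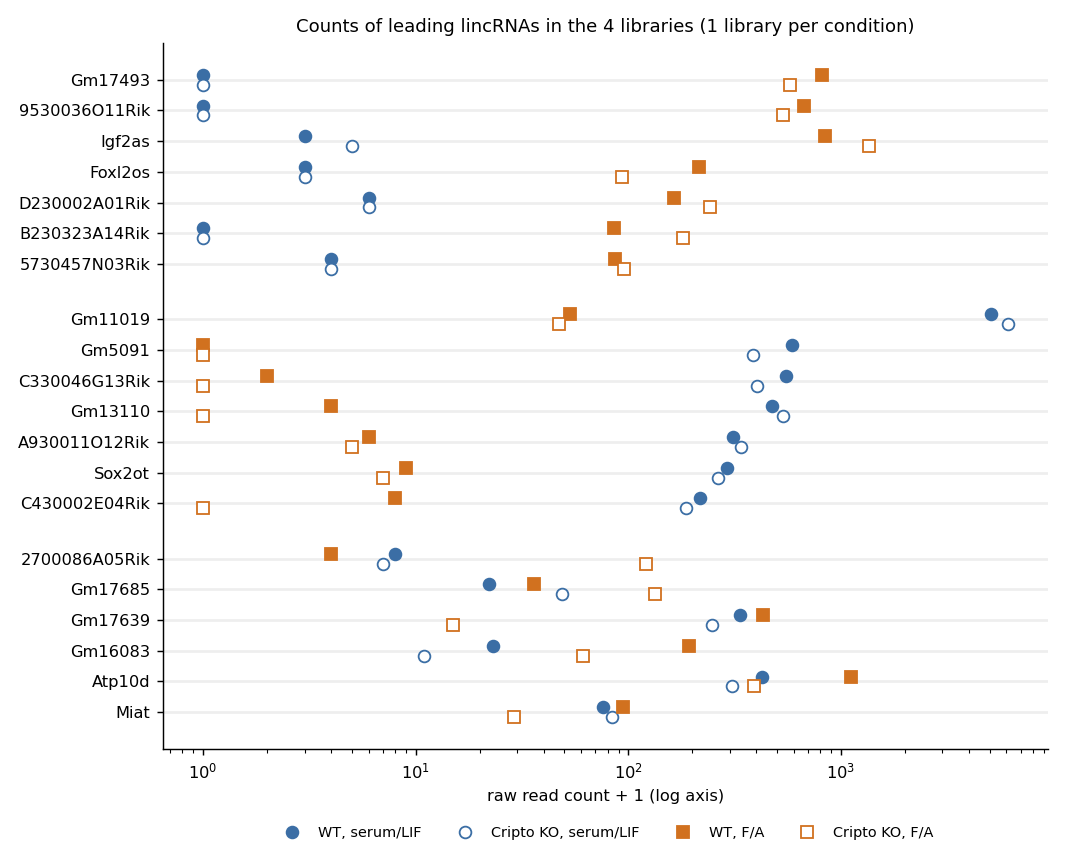
Raw read count plus 1 (log axis) of 20 lincRNAs in each library, with circles for serum/LIF and squares for F/A, filled for WT and open for Cripto KO. In the upper block the squares lie to the right of the circles and in the middle block to the left, while in the lowest block the filled and open squares stand apart, as for 2700086A05Rik with 3 and 120 counts.

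The second comparison was the same step in Cripto KO cells. Here 96 members (20.3%) were higher in F/A and 105 (22.2%) lower, against 18.1% and 18.3% of all genes, and the median log2 ratio was -0.14. The WT and Cripto KO steps share no library. Of the 223 members called in WT and the 201 called in Cripto KO, 164 were called in both in the same direction, 83 higher and 81 lower, which is 73.5% of the WT calls and 81.6% of the Cripto KO calls. For all genes the shares were 72.9% and 81.0%. Opposite calls in both genotypes were found for 0 members (11 of all genes), and 212 were called in neither genotype. Across the 472 members the log2 ratios of both genotypes had a Spearman rho of 0.87, and across all genes also 0.87.

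**Figure D2:**
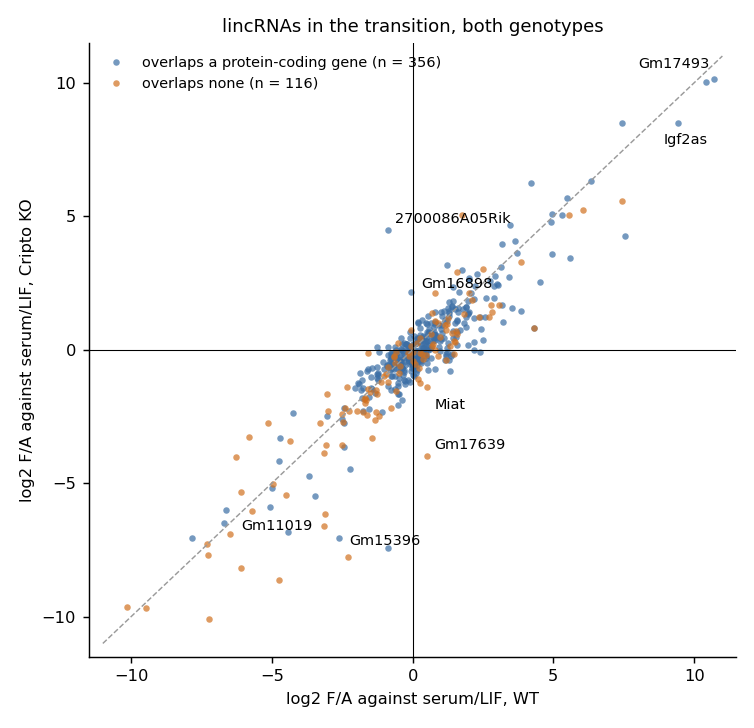
Log2 ratio of F/A to serum/LIF for each of the 472 lincRNAs in WT (horizontal axis) and Cripto KO (vertical axis), in blue for the 356 that overlap a protein-coding gene and orange for the 116 that do not, with a dashed line of equal ratios. Most points follow the line, Gm17493 and Igf2as at the top and Gm11019 near the bottom, while 2700086A05Rik, Gm17639 and Gm15396 lie off it.

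Calls in one genotype alone were counted for members only, so no share over all genes stands beside them. Over all genes, 2826 were called higher and 2809 lower in the WT step, and 2521 and 2549 in the Cripto KO step. These totals include genes called in both genotypes, so they give no scale for the calls in one genotype alone. There were 45 members higher in the WT step only and 13 higher in the Cripto KO step only, and 14 lower in WT only against 24 lower in Cripto KO only. Most kept the sign in the other genotype, 46 of the 59 called in WT alone and 30 of the 37 called in Cripto KO alone. Cripto KO minus WT, the difference of both log2 ratios, was at least 1 in size with its 95% counting interval on the same side of 0 for 76 members. It was positive for 13 of them (2.75%) and negative for 63 (13.3%), where 4.53% of all genes were positive and 5.92% negative, and the median difference of the members was -0.23. Of the 63, 25 were higher in the WT step only, 11 higher in both, 13 lower in the Cripto KO step only, 9 lower in both and 5 called in neither. The difference is made from the same steps, and this split was not counted over all genes.

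The overlap with coding genes separated the directions. Of the 356 members that overlap a protein-coding gene, 100 (28.1%) were higher in WT F/A than in WT serum/LIF and 47 (13.2%) were lower, and in Cripto KO 78 (21.9%) were higher and 52 (14.6%) lower. The 116 members that overlap none went mainly down, with 28 (24.1%) higher and 48 (41.4%) lower in WT, and 18 (15.5%) higher and 53 (45.7%) lower in Cripto KO. Their median log2 ratio was -0.51 in WT and -0.62 in Cripto KO, against 0.19 and -0.03 for the overlapping members. Both steps together gave 15 higher and 46 lower among the 116, and 68 higher and 35 lower among the 356. In the 82 members that share no base with any gene, 18 were higher and 37 lower in WT and 13 higher and 42 lower in Cripto KO. Leaving the overlapping members out thus turned the WT count from more higher than lower into more lower than higher.

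**Figure D3:**
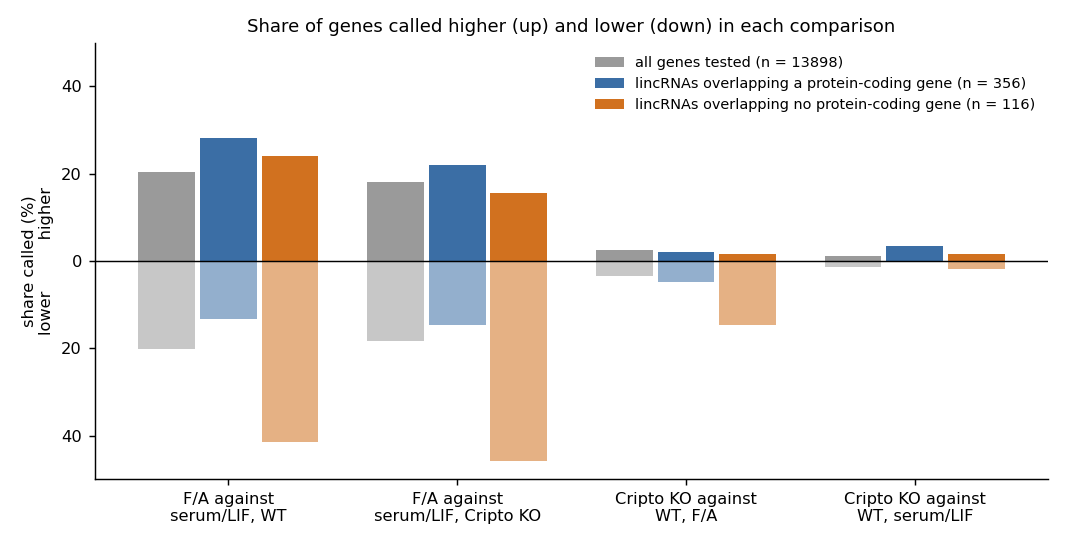
Percentage of genes called higher (bars above 0) and lower (bars below 0) in each of the 4 comparisons, for all 13898 genes (grey), the 356 lincRNAs that overlap a protein-coding gene (blue) and the 116 that do not (orange). In both steps to F/A the orange bars reach 41.4% and 45.7% below 0, against 20.2% and 18.3% for all genes.

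The members were also counted by the 4 kinds defined above. Of the 57 isolated lincRNAs, 12 were higher and 28 lower in WT, with a median log2 ratio of -0.94, and 8 were higher and 34 lower in Cripto KO, with a median of -1.64. The 97 divergent lincRNAs had 17 higher and 28 lower in WT and 14 and 25 in Cripto KO. The 293 overlapping ones had 92 higher and 32 lower in WT and 73 and 39 in Cripto KO. Of the 25 hosts of small RNAs, 7 were higher and 7 lower in WT, and 1 was higher and 7 lower in Cripto KO.

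Members were next set beside their neighbours. For 263 members with exactly 1 protein-coding gene on the other strand and none on their own, the log2 ratios of member and opposite gene had a Spearman rho of 0.86 in WT and 0.89 in Cripto KO. Of the 111 such members called in WT, 81 had an opposite-strand gene called in the same direction and 2 in the opposite one, and in Cripto KO the numbers were 80 and 1, with 20 whose opposite gene was not called. With under 20% of exonic bases shared (147 pairs), rho was 0.83 in WT and 0.88 in Cripto KO, and the opposite gene was called the same way for 44 of 67 called members in WT and 48 of 64 in Cripto KO. With 20% or more shared (116 pairs) these values were higher, a rho of 0.88 and 0.91 and 37 of 44 and 32 of 37 members, and the difference was not tested. For the 43 isolated lincRNAs with a measured neighbour, rho to the nearest coding start was 0.17 in both genotypes. Between protein-coding genes and their nearest coding start it was 0.23 and 0.24 over 9234 pairs. There the nearest gene was called in the same direction for 29.9% of the called genes in WT and 28.6% in Cripto KO. For called members and their nearest coding start these shares were 45.5% and 54.4%, but they differed by kind. They were 57.9% and 67.7% for overlapping members, 33.3% and 45.7% for divergent ones and 18.2% and 42.9% for hosts of small RNAs. For isolated members they were 26.7% and 25.8%, under the shares between protein-coding genes. Points of one comparison share both libraries, and reads of overlapping genes can be shared, so these values are descriptions.

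**Figure D4:**
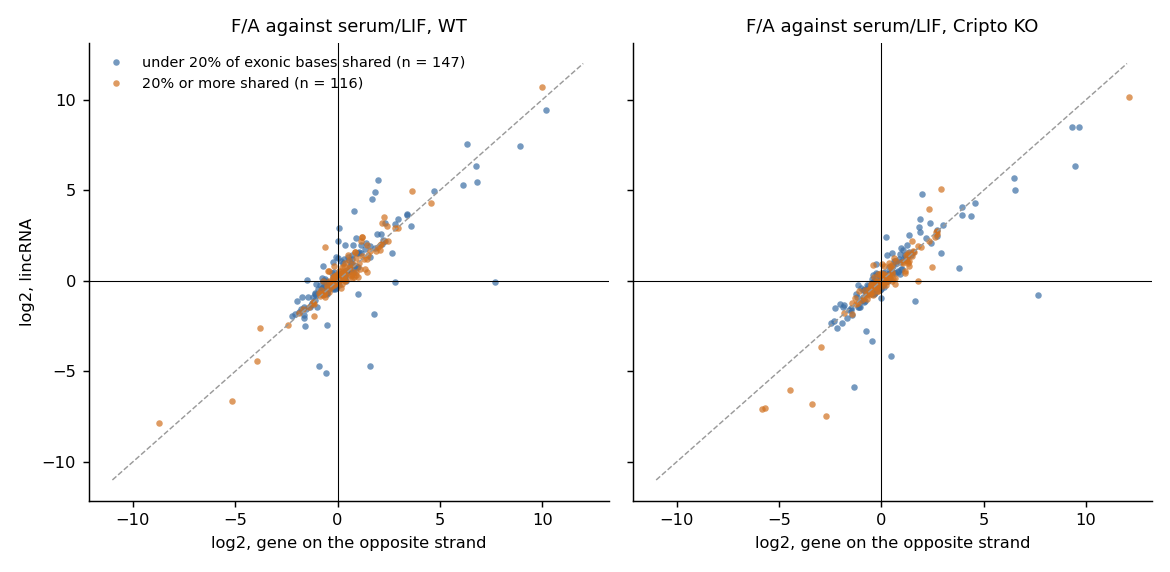
Log2 ratio of F/A to serum/LIF of 263 lincRNAs (vertical axis) against that of the only protein-coding gene on the opposite strand (horizontal axis), WT left and Cripto KO right, coloured by whether 20% or more of the exonic bases are shared. The points of both colours follow the dashed line of equal ratios, with a rho of 0.86 in WT and 0.89 in Cripto KO.

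The third comparison set the genotypes against each other in F/A. It gave 9 members (1.91%) higher in Cripto KO and 34 (7.20%) lower, where 2.55% of all genes were higher and 3.51% lower, and the median log2 ratio of the members was -0.14. Of the 34, 19 were among those higher in the WT step, 7 among those lower in it and 8 called in neither direction there. Both comparisons hold the same WT F/A library, so a high value in it favours both calls. This split was not counted over all genes and is a description only. Of the same 34 members, 17 overlap no protein-coding gene. Of the 116 members without such an overlap 17 (14.7%) were lower and 2 higher, and of the 57 isolated ones 11 were lower and 0 higher. Other features moved with this contrast. The summed trophoblast markers stood at 85.9 cpm in WT F/A and 220 in Cripto KO F/A. Of 5 markers, 4 lay above the detection limit of 3 counts (6 in Cripto KO F/A) in each library, and Elf5 below it in both. Cdx2 (104 and 674 counts) and Hand1 (196 and 1730) were higher in Cripto KO, while Gata3 (238 and 252) and Krt7 (769 and 802) differed little. The 7 fibroblast markers summed to 72.5 and 190 cpm, with 0 and 1 of them at or under the limit. Among them Col1a1 (504 and 1496 counts), Col1a2 (376 and 694), Col3a1 (72 and 610) and Dcn (5 and 18) were higher in Cripto KO. Thy1 (18 and 28), Lum (5 and 4) and Postn (124 and 138) differed little. Over all genes the log2 ratio had a rho of -0.27 with transcript length (-0.16 over members). The part of these features in the result was not tested.

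The widest rise in Cripto KO F/A was that of 2700086A05Rik (Hoxaas3), the antisense RNA of the Hoxa cluster, which patterns the body axis. It had 120 counts in Cripto KO F/A, 3 in WT F/A, 7 in WT serum/LIF and 6 in Cripto KO serum/LIF, so only 1 of the 4 libraries was above 10. The log2 ratio between genotypes in F/A was 5.35, with an interval of the ratio from 12.6 to 193, and 30.7% of its exonic bases were shared with another gene. Gm17685, on the other strand of the growth factor gene Fgf15, had 35 counts in WT F/A and 132 in Cripto KO F/A, and 21 and 48 in serum/LIF. Fgf15 had 45 and 258 counts in F/A and 49 and 112 in serum/LIF, so both were higher in Cripto KO under either condition.

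Gm16898 had 58 counts in WT F/A and 198 in Cripto KO F/A (log2 ratio 1.72, interval of the ratio 2.37 to 4.65). Of its exonic bases, 99.9% lie under exons on the other strand, where the zinc finger gene Tshz2 is annotated. Tshz2 had 62 counts in WT F/A and 218 in Cripto KO F/A, and the reads of Gm16898 and Tshz2 cannot be told apart. Gm17480, which crosses a row of coding genes, had 160 and 370 counts, and B230323A14Rik at Foxb1 85 and 180. The last of these was called by a narrow margin, with a log2 ratio of 1.06. The transcript 9130206I24Rik (Foxd2os), 359 bases from the forkhead gene Foxd2 and with 0.0% of its exonic bases shared, had 15 counts in WT F/A and 62 in Cripto KO F/A. It was named after its values were seen, and its log2 ratio was 2.02 (interval of the ratio 2.10 to 7.97).

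The widest fall among the members with 100 or more counts in WT F/A was that of Gm17639. It had 429 counts in WT F/A, 333 in WT serum/LIF, 14 in Cripto KO F/A and 247 in Cripto KO serum/LIF, so that 1 library stood below the other 3. The log2 ratio in F/A was -4.75, with an interval of the ratio from 0.0126 to 0.0656. All of its exonic bases (100%) lie under an exon of the imprinted noncoding RNA Meg3, which had 9569, 5190, 472 and 3947 counts in the same order. The reads of Gm17639 and Meg3 cannot be told apart here.

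Of the lincRNAs that overlap no coding gene, Atp10d, a locus that later catalogues list as a transcribed pseudogene, had 1109 counts in WT F/A, 424 in WT serum/LIF, 390 in Cripto KO F/A and 305 in Cripto KO serum/LIF. WT F/A alone stood high, and the log2 ratio between genotypes in F/A was -1.55 (interval of the ratio 0.291 to 0.397). Miat, a nuclear RNA known from neurons and heart, had 93, 75, 28 and 83 counts in that order, so here Cripto KO F/A alone stood low, with a log2 ratio of -1.55 in F/A. Tdrd5, which encodes a germ cell protein and which later catalogues list as protein-coding, had 614 counts in WT F/A and 284 in Cripto KO F/A, and 303 and 139 in serum/LIF. It was named after its values were seen.

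Among antisense members, some stood beside a gene that differed in the same way and some did not. Gm16083, on the other strand of the complement regulator gene Cd55, had 192 counts in WT F/A and 60 in Cripto KO F/A, and Cd55 had 1395 and 460. Gm16233 had 123 and 34 counts in F/A and 8 and 22 in serum/LIF, lower in Cripto KO in one condition and higher in the other, and Clca6 on its opposite strand had 196 and 82 counts in F/A and 11 and 33 in serum/LIF. Nespas, the antisense RNA of the imprinted Gnas locus, had 201 counts in WT F/A and 78 in Cripto KO F/A, while Gnas itself had 11731 and 15928, a log2 ratio of 0.30 that was not called. Foxl2os was lower in Cripto KO F/A, with a log2 ratio of -1.18 (interval of the ratio 0.297 to 0.577), and Foxl2 had 74 counts in WT F/A and 104 in Cripto KO F/A. Over the 263 pairs rho was 0.72 in this comparison.

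**Figure D5:**
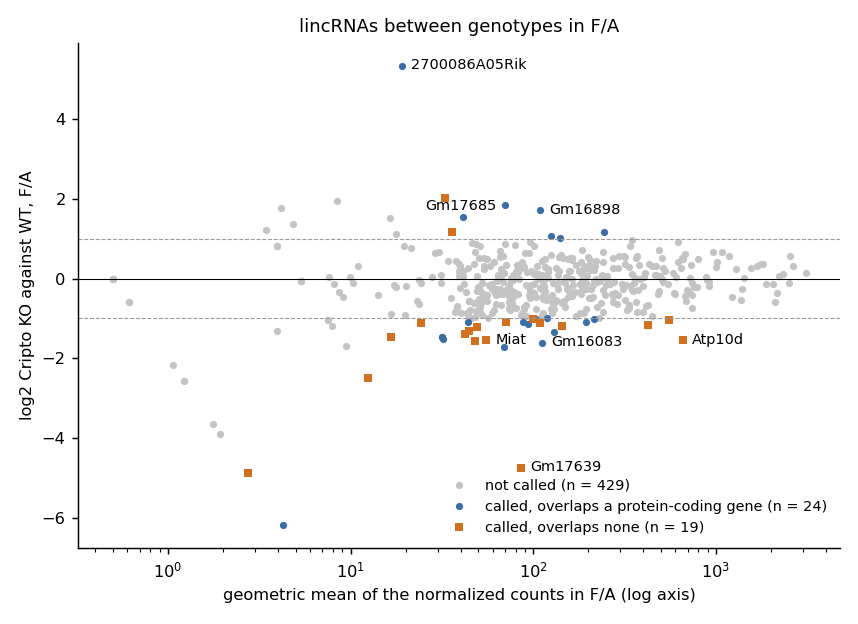
Log2 ratio of Cripto KO to WT in F/A for the 472 lincRNAs (vertical axis) against the geometric mean of their normalized counts in both F/A libraries (log axis), with dashed lines at a log2 ratio of 1 and -1. Coloured points are the 43 called members, 24 that overlap a protein-coding gene (blue circles) and 19 that do not (orange squares), and 34 of them lie below 0.

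The fourth comparison, between the genotypes in serum/LIF, gave 14 members (2.97%) higher in Cripto KO and 3 (0.636%) lower, where 1.13% of all genes were higher and 1.45% lower. The split moved with the scaling, to 10 higher and 6 lower with library totals and to 11 and 5 with TMM or DESeq2 factors. Most rested on few counts, and only 5 members higher and 1 lower had a mean of at least 50 counts. Gm15396 had 45 counts in WT serum/LIF and 323 in Cripto KO serum/LIF, and 6 and 2 in F/A. Its log2 ratio was 3.12, with an interval of the ratio from 5.58 to 10.7. Napsa, on the other strand, had 159 and 797 counts in serum/LIF and 10 and 12 in F/A. As 23.9% of the exonic bases of Gm15396 were shared, a change of the lincRNA cannot be told from one of Napsa. Gm2694, which faces Cbln1, the gene of a synaptic protein, had 183 counts in WT serum/LIF and 72 in Cripto KO serum/LIF, a log2 ratio of -1.19 (interval 0.314 to 0.553). Gm16978, inside the gene Birc6, had 62 and 106 counts, a log2 ratio of 1.02 that fell to 0.86 under total-count scaling and was then not called.

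The 10 lincRNAs with the highest counts per kilobase were 2410006H16Rik, Gm15441, Gm17431, Gas5, Snhg1, Gm13061, 1810014B01Rik, 9430008C03Rik (Snhg17), Gm17659 and Gm9793. Of these, Snhg1 and Gm13061 were called in a step to F/A and 0 were called between genotypes. Snhg1, a host of small nucleolar RNAs, had 2083 counts in WT F/A, 5566 in WT serum/LIF, 1894 in Cripto KO F/A and 5654 in Cripto KO serum/LIF, a log2 ratio of -1.31 in WT and -1.51 in Cripto KO. Gm13061, on the other strand of the RNA-binding protein gene Lin28a, had 1383, 371, 1408 and 518 counts, and Lin28a had 13882, 3580, 14480 and 5542. The host 2410006H16Rik, which had the highest density with a mean of 3082 counts per kilobase, had 948, 1599, 1418 and 1731 counts in that order, and Gas5, a host that is also known from growth arrest, had 795, 1383, 640 and 1230. Neither passed the 2-fold threshold.

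Gm15441, on the other strand of the redox regulator gene Txnip, stayed within 2857 to 3781 counts. Gm17431, with 2315, 4830, 2854 and 5682 counts, shares 98.6% of its exonic bases with exons on the other strand. The antisense members Gm17659 at Morf4l1 and Gm9793 at G3bp2 had 1457 to 2091 and 2348 to 4916 counts, 1810014B01Rik at Hsp90b1 had 2084 to 2342, and the host Snhg17 had 1040 to 1396.

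Of 39 lincRNAs listed for a textbook role, 14 were members. Tug1, an abundant nuclear RNA, had 2406 counts in WT F/A, 2415 in WT serum/LIF, 1864 in Cripto KO F/A and 2791 in Cripto KO serum/LIF and was called in no comparison. The RNA 1700020I14Rik (Oip5os1, or Cyrano), known for its control of microRNA decay, had 2529, 1528, 1670 and 1728 counts in that order. WT F/A stood above the other 3 libraries, but the log2 ratio of 0.81 in WT did not reach the threshold. Of the hosts of small nucleolar RNAs, Snhg7 (473, 184, 276 and 162 counts) and Snhg4 (186, 85, 114 and 102 counts) were higher in F/A in WT, with log2 ratios of 1.53 and 1.32, and in Cripto KO stood at 0.69 and 0.15. Snhg5 (889, 1483, 892 and 1040 counts) and Snhg12 (411, 605, 380 and 562 counts) were not called. Over the 11 hosts of named small nucleolar RNAs, 3 (27.3%) were higher and 1 (9.09%) lower in WT, and 0 higher and 1 lower in Cripto KO, where 20.3% and 20.2% of all genes were higher and lower in WT and 18.1% and 18.3% in Cripto KO.

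Proteins that act on noncoding RNAs were given from 3 lists. Of 13 paraspeckle proteins, 1 was called, the cleavage factor gene Cpsf6, with 5603 counts in WT F/A and 2213 in WT serum/LIF against 4320 and 2626 in Cripto KO. Of 15 subunits and cofactors of the nuclear exosome, which degrades many noncoding RNAs, 4 (26.7%) were lower in F/A in WT (Exosc2, Exosc3, Exosc5 and Zcchc8) and 2 (13.3%) in Cripto KO (Exosc5 and Zcchc8), and 0 were higher. These shares lay near the 20.2% and 18.3% of all genes called lower. Exosc5 had 386 counts in WT F/A, 1599 in WT serum/LIF, 576 in Cripto KO F/A and 1413 in Cripto KO serum/LIF. Of 10 factors of nonsense-mediated decay, Smg1 was higher in F/A in WT (log2 ratio 1.15). Between the genotypes 0 genes of these lists were called.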

How the data were processed

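Total RNA from R1 mouse ESCs made up 4 libraries, 1 for each condition. Paired-end reads were aligned by the authors to mm9 (NCBIM37) with TopHat2 2.0.13 and counted per gene with HTSeq 0.6.1p1, and the raw counts were deposited. They also deposited a signal, the full quantile-normalized counts of the genes kept by a filter on low values. All 472 members were in that table, and quantile normalization of the raw counts repeated here matched 100% of its values within 0.01. Each column was matched to its library by name, and 0 value columns were left without a sample. Libraries held 15230856 to 17315442 counts, and since precision follows the counts of each gene, intervals are wide for low members. Intervals and the detection limit (3 counts, or 6 in F/A Cripto KO) cover counting error only.

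Gene names, biotypes and positions came from an Ensembl 65 annotation of NCBIM37, which named 37205 (98.9%) of the genes. Later names were matched by symbol to RefSeq for 275 members. Ratios were computed from the normalized counts with 0 replaced by 0.5, in Python 3.11.15 with numpy 2.4.6, pandas 2.3.3 and scipy 1.17.1. A gene was called at 2-fold with a 95% Clopper-Pearson interval of the raw count ratio, scaled by library totals, wholly on the same side of 1. The interval of a difference of log2 ratios was a normal one. TMM factors from edgeR 4.0.16 and size factors from DESeq2 1.42.0 in R 4.3.3 served as other scalings only.

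Named were the 5 called members with the widest ratio in each direction and comparison among those with at least 100 counts in the higher library, the 10 with the highest counts per kilobase, and the members of a list of 39 lincRNAs with textbook roles. Promoters were printed for the first of the lower members in each step and for the first in each direction in F/A between genotypes, and some items that the rules select are not reported here. The members, lists and rules were chosen with earlier results of these data known.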

Additional observations from a re-analysis of the deposited data

How the results depend on the processing

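Every setting below kept 1 library per condition, so the settings vary the processing and not the cultures. No paired analysis was possible because each condition has 1 library, so that no replicate numbers link samples, and a fit of culture with genotype as a block was not run. The settings tried were total-count scaling (cpm), TMM factors, DESeq2 size factors, 5 added to the values, means of 50 counts or more, no filter on counts, 2-fold alone, a fold of at least 3, a whole interval past 2-fold, F/A Cripto KO counts not halved, and members that share no base with another gene. The members that overlap no protein-coding gene and the subtraction of a running median over transcript length were chosen after seeing the data.

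With no filter on counts, which takes in 1150 lincRNAs with at least 1 count, the numbers of members called in the WT step, the Cripto KO step, F/A between genotypes, serum/LIF between genotypes and the difference of the steps were 403, 310, 82, 45 and 136, against 223, 201, 43, 17 and 76. A fold of at least 3 gave 147, 131, 10, 6 and 31. A whole interval past 2-fold gave 127 in the Cripto KO step, 9 in F/A between genotypes, 2 in serum/LIF and 17 for the difference. Members that share no base with another gene (82) gave 55, 55, 15, 3 and 17, and those that overlap no protein-coding gene (116) gave 76, 71, 19, 4 and 26. In serum/LIF between genotypes, 2-fold alone gave 28 and a mean of at least 50 counts gave 6. These numbers fell or rose with the genes and thresholds each setting takes in.

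Higher calls made up 57.4% of the calls in the WT step and 47.8% in the Cripto KO step. They made up 32.7% and 23.6% among members that share no base, and 36.8% and 25.4% among those that overlap no protein-coding gene. In F/A between genotypes the 9 higher and 34 lower became 4 and 6 at a fold of 3, 4 and 5 with a whole interval past 2-fold, and 2 and 17 among members that overlap no protein-coding gene. In serum/LIF the 14 higher and 3 lower became 10 and 6 with total-count scaling, 11 and 5 with TMM or DESeq2 factors, 28 and 17 with no filter, 2 and 1 among members that share no base, 2 and 2 among those that overlap no protein-coding gene, and 1 and 1 with a whole interval past 2-fold. For the difference of the steps, 17.1% became 29.4% among members that share no base. No scaling moved the median of all genes by over 0.1.

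For 73 called values of the 46 named members, 511 repeats gave 490 calls in the same direction, 21 that were no longer called and 0 reversals. Leaving F/A Cripto KO counts unhalved and asking for a whole interval past 2-fold keep every ratio as it was, so neither could give a reversal. Many named members were also picked for the widest ratios in these data, so the repeats are a description and not a check. The rho to the nearest coding start and the number of divergent members called changed by little under their settings (0.32 to 0.61 for rho over all comparisons).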
